A study of Mus musculus with 6 samples.

Results

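The data compared here are 4 microarrays of cells sorted from mouse embryonic liver, set against each other in pairs: the ITGA8+ and PDPN- fractions, called the stellate side, against the ITGA8- and PDPN+ fractions, called the mesothelial side. A gene was taken as a member when it was at least 2-fold higher in ITGA8+ than in ITGA8- cells and also in PDPN- than in PDPN+ cells (higher on the stellate side), or at least 2-fold lower in both (higher on the mesothelial side). The higher array of each pair also had to exceed an intensity of 109, called the floor here, which is the median of all probe set values of the 6 arrays. Of 20678 genes with a probe set of their own, 12801 passed this floor in both pairs. Of these, 100 genes were higher on the stellate side, which is 0.781%, and 315 on the mesothelial side, which is 2.46%, or 3.24% for either side. After quantile normalisation of the 4 arrays the balance moved, from 75.9% mesothelial-side genes among the members to 60.8%, with 176 genes on the stellate side and 273 on the mesothelial side. The intensities of these 4 arrays chose the members, so the counts and differences describe the choice and nothing is read from them as a test.

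The series holds 6 Affymetrix Mouse Genome arrays, 1 per group, made from wild type C57Bl6 embryos at stage E12.5. All 4 fractions were first sorted as ALCAM+, a surface adhesion molecule of the immunoglobulin family, and then split either by ITGA8 (ALCAM+ ITGA8+ and ALCAM+ ITGA8- cells) or by PDPN (ALCAM+ PDPN+ and ALCAM+ PDPN- cells). The other 2 arrays, of liver cells and of ALCAM+ cells, took no part in choosing the members and lie on another intensity scale. There are no replicates: the 2 arrays of a side are different sorts of cells, so no spread between samples, test or p-value can be given, and how many embryos were pooled is not stated in the labels.

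Hepatic stellate cells store vitamin A and lie as mesenchymal cells between the sinusoidal endothelium and the hepatocytes, and in injured adult liver they turn into matrix-producing myofibroblasts. The mesothelium is the epithelial sheet that covers the liver and the walls of the body cavity. In the embryo both are mesodermal and are tied to the septum transversum, and mesothelial cells are known to give rise to some of the stellate cells beneath them. ITGA8 is the integrin alpha 8 subunit, which pairs with integrin beta 1 and binds the matrix protein nephronectin. PDPN, podoplanin, is a mucin-like surface glycoprotein of mesothelium and lymphatic endothelium.

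The 3 stellate markers and the 2 mesothelial markers named for these fractions lay on their labelled sides. The markers came with the rule that chose members from these same arrays, so their place does not check the labels. Lrat, which esterifies retinol for storage, had intensities of 193 in ITGA8+ and 231 in PDPN- against 36 in ITGA8- and 9 in PDPN+. Bmp5, a secreted bone morphogenetic protein, was at 867 and 1327 on the stellate side and at 246 and 165 on the mesothelial side. For both genes each stellate-side array was above each mesothelial-side array. Ngfr, the low-affinity neurotrophin receptor, was at 2466 in ITGA8+ and 436 in PDPN- against 602 in ITGA8- and 154 in PDPN+. It passed in each pair, but the ITGA8- array lay above the PDPN- array, so the sides overlapped.

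Upk3b, a uroplakin of mesothelium, was at 4578 in ITGA8+ and 139 in PDPN- against 11076 in ITGA8- and 14424 in PDPN+. The R-spondin gene Rspo1, whose product strengthens WNT signalling, was at 439 and 26 on the stellate side and at 1412 and 1872 on the mesothelial side. The sides did not overlap for either gene, yet the ITGA8+ array held far more of both than the PDPN- array did. Of the sort genes, Itga8 itself was at 4354 in ITGA8+, 2215 in PDPN-, 871 in ITGA8- and 737 in PDPN+, so it also differed in the split that was sorted on PDPN. Pdpn was not a member, because the ITGA8 split hardly separated it: 4658 in ITGA8+ and 6176 in ITGA8-, against 117 in PDPN- and 7746 in PDPN+. Alcam, for which all were sorted, was between 16996 and 22418 on its brightest probe set, and another, far dimmer one was at 145 and 101 on the stellate side against 347 and 315.

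The second probe set of Lrat was low in every array and differed by 0.07 and 0.44 on the log2 scale, so the Lrat values rest on a single probe set. The other 2 probe sets of Bmp5 had the same sign, at 0.91 and 0.81 in the ITGA8 split and at 2.19 and 2.14 in the PDPN split. Those of Ngfr were at 41 or lower in all 4 arrays, and with the mean over its probe sets the smaller of the differences of Ngfr in the 2 splits, called its smaller difference below, became 0.73, under 2-fold. Across the members, 37 of 43 other probe sets above the floor (86.0%) of the stellate-side genes had the same sign in both splits and 10 (23.3%) were also 2-fold in both. On the mesothelial side the counts were 110 of 119 (92.4%) and 61 (51.3%), and no member had another probe set that was 2-fold the opposite way in both splits.

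All differences below are on the log2(intensity + 16) scale, ITGA8+ minus ITGA8- (the ITGA8 split) and PDPN- minus PDPN+ (the PDPN split), so that positive values mean higher on the stellate side and the differences of weakly expressed genes are understated. The stellate-side genes had a median of 1.27 in the ITGA8 split and 1.39 in the PDPN split, that is 2.41-fold and 2.62-fold. The mesothelial-side genes had medians of -1.34 and -2.77, that is 2.54-fold and 6.83-fold, and 282 of the 315 differed more in the PDPN split. Over all 12801 genes the medians were -0.02 and -0.03, but the PDPN split was wider in general. Of all genes 18.4% were 2-fold higher in PDPN+ and 6.98% in PDPN-, against 6% in ITGA8- and 4.62% in ITGA8+. The larger difference in the PDPN split is therefore not particular to the members. At 4-fold in both splits, 5 stellate-side and 38 mesothelial-side genes were left.

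Both stellate-side arrays were above both mesothelial-side arrays for 73 of the 100 stellate-side genes, where 12.3% of all genes tested had this order, and the reverse held for 305 of the 315 mesothelial-side genes, where 18.7% of all genes had it. The rule itself makes such an order likely. The PDPN- array was the lowest of the 4 for 253 of the 315 mesothelial-side genes. It also had the lowest median probe set intensity, 159, against 211 in ITGA8+, 226 in PDPN+ and 245 in ITGA8-. It had 11874 genes above the floor, and the other arrays 13009 to 13352. The share of all genes for which it was lowest was not computed. In 172 of these 315 at least 1 array was below the floor, as in 35 of the 100 stellate-side genes, and for these the size of a difference depends on the added constant. Just inside the threshold on the stellate side lay Ccdc159, at 120 and 173 against 52 and 63, and just outside it the integrin gene Itga5, at 5117 and 4436 against 2555 and 2222. Just inside on the mesothelial side lay the laminin gene Lamc3, at 306 and 279 against 145 and 27, and just outside Syt13, at 649 and 380 against 317 and 32.

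**Figure D1:**
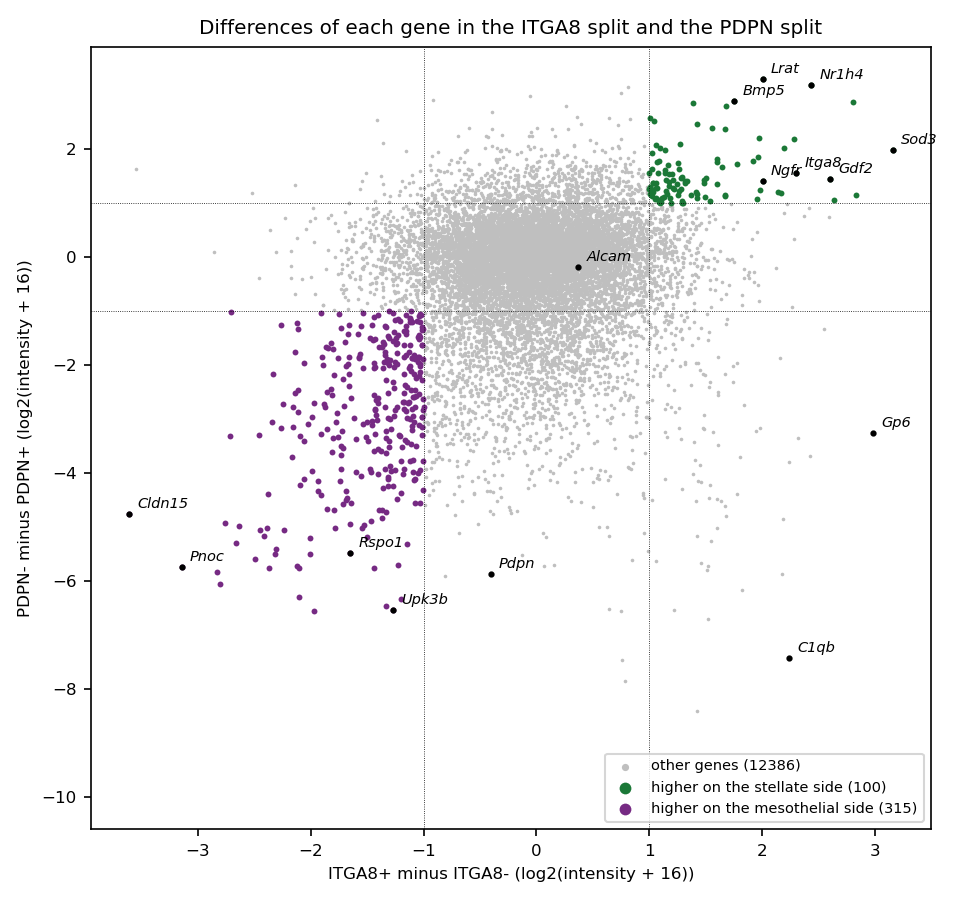
Each point is 1 of 12801 genes, with the ITGA8+ minus ITGA8- difference on the x axis and the PDPN- minus PDPN+ difference on the y axis, both on the log2(intensity + 16) scale; dotted lines mark 2-fold, green and purple points are the 100 and 315 members, and black points are named genes. Lrat, Bmp5 and Nr1h4 lie at the upper right, Cldn15 and Pnoc at the lower left, and the purple points reach lower on the y axis than the green points reach up.

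The stellate side was led by an unannotated transcript and by a nuclear receptor, a capillary protein and a calcium sensor. The transcript AU023617 was at 560 in ITGA8+, 147 in PDPN-, 66 in ITGA8- and 6 in PDPN+, the largest smaller-of-2 difference of that side at 2.81. Nr1h4, which encodes the bile acid receptor FXR, was at 720 and 1003 on the stellate side against 120 and 95, or 5.41-fold and 9.18-fold. Plvap, which forms the diaphragms of fenestrated capillaries, was at 1840 and 460 against 365 and 88. None of these genes overlapped between the sides, although for Plvap the PDPN- array exceeded the ITGA8- array by little.

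Hpca, the neuronal calcium sensor hippocalcin, was at 2016 and 764 on the stellate side and at 428 and 176 on the mesothelial side. Sod3, the extracellular superoxide dismutase, was at 136 and 186 against 1 and 35, so that it was barely above the floor even where it was high. Abcc9, the sulphonylurea receptor subunit of potassium channels in pericytes and smooth muscle, was at 1742 and 1709 against 449 and 484. Abcc9 had closely similar arrays within each side, and Kcnj8, the pore subunit of the same channels, had differences of the other sign, at -0.71 and -0.87. The remaining leaders were Tmem204, Neto1, Proz and Whrn, between 1.61 and 1.96 in the ITGA8 split and between 1.67 and 2.39 in the PDPN split. With the mean over probe sets the smaller difference became 0.09 for Whrn and 0.72 for Proz, below 2-fold, and Whrn was at 0.08 with specific probe sets alone. The other probe set of Proz above the floor differed by -0.21 and 1.97.

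**Figure D2:**
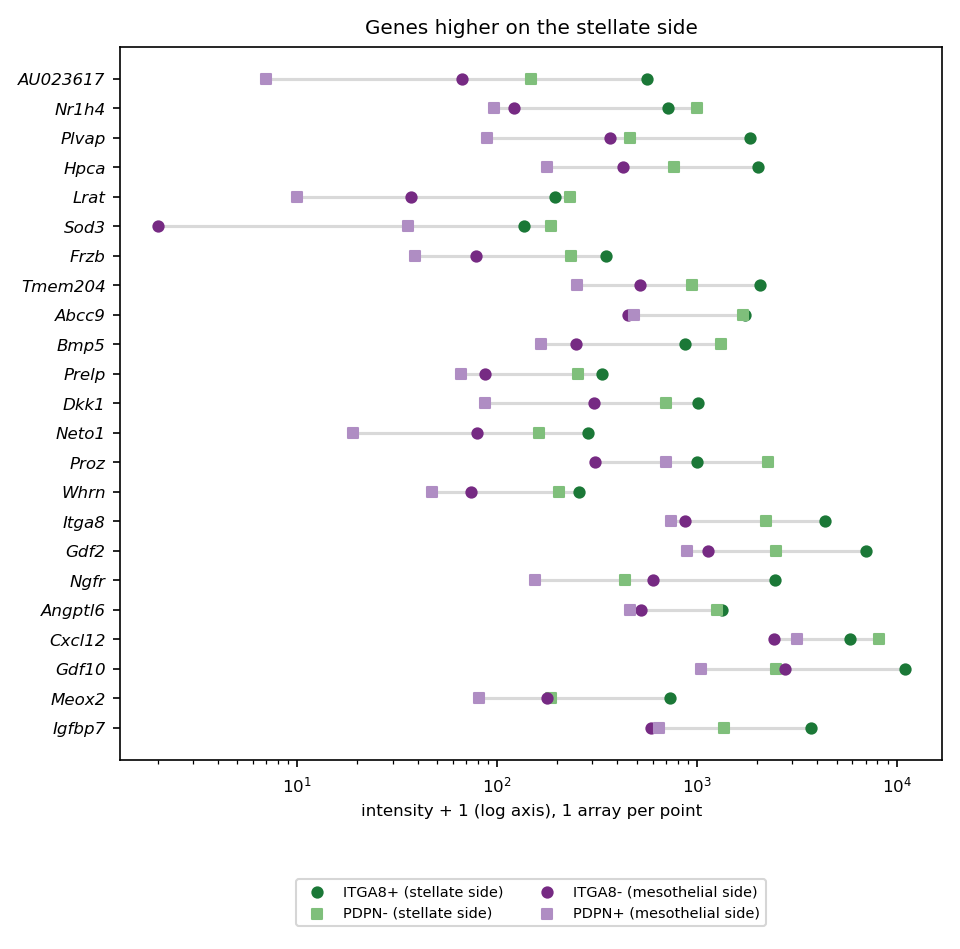
Intensity plus 1 on a log axis for the 15 leading stellate-side genes and 8 stellate-side genes of the fixed lists, 1 point per array; circles are the ITGA8 split, squares the PDPN split, green the stellate side and purple the mesothelial side. For most genes both green points lie to the right of both purple points; Ngfr and Gdf10 are exceptions.

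Secreted ligands of the bone morphogenetic protein and TGF-beta family, Bmp5 among them, were found on the stellate side and a receptor, a binding protein and nuclear responders on the mesothelial side. Gdf2 encodes BMP9, a ligand known to come from liver stellate cells and to act on endothelium. It was at 6991 in ITGA8+ and 2481 in PDPN- against 1133 in ITGA8- and 894 in PDPN+, with no overlap. Gdf10, also called BMP3b, was at 10966 and 2494 against 2763 and 1047. Here the ITGA8- array was slightly above the PDPN- array. Bmp8b, a ligand outside the lists, was at 233 and 352 against 97 and 108.

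On the mesothelial side Bmpr1b, a type I receptor, was at 839 in ITGA8- and 1116 in PDPN+ against 242 and 59 on the stellate side. Chrdl1, a secreted BMP antagonist, was at 665 and 540 against 218 and 49. Id1, an inhibitor of DNA binding and a textbook BMP target, was at 2014 and 4163 against 453 and 1645, and Id3 was at 5373 and 6503 against 2589 and 1786. The sides did not overlap for these 4 genes, and the smaller difference of Chrdl1 became -0.59 with the mean over probe sets. Of 35 tested genes of this pathway 3 were stellate-side and 4 mesothelial-side members, and the list medians were 0.06 and -0.61; the first turned to -0.05 with loess and to -0.06 with quantile normalisation. The other ligands Tgfb2 and Tgfb3 differed in the PDPN split (-3.28 and -4.12) and hardly in the ITGA8 split (0.12 and -0.06).

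Gdf10 and Gdf2 are also next to each other in the order of tested genes along chromosome 14. Of 363 members that could be placed in a RefSeq gene table, 5 pairs of stellate-side and 14 pairs of mesothelial-side genes were neighbours in this order, and 6 neighbours lay on opposite sides. Stellate-side genes were 0.781% and mesothelial-side genes 2.46% of all genes tested. How many neighbours would arise at those shares was not computed, so no clustering is read from these counts. The stellate-side pairs also included Shfl with Angptl6 and Hpca with Fndc5. The 250 bases before the annotated start of Gdf2 are shown because Gdf2 is the stellate cell list member with the largest difference in the ITGA8 split, and because GATA factors, among them Gata4 (differences of 0.48 and -2.41), are known in liver mesenchyme. Capitals mark AGATAA, a form of the GATA motif, which was searched on both strands and found 75 and 43 bases before the start. The sequence is from RefSeq, GRCm38.p6, written 5′ to 3′:
Gdf2, chr14:33940789-33941038, plus strand: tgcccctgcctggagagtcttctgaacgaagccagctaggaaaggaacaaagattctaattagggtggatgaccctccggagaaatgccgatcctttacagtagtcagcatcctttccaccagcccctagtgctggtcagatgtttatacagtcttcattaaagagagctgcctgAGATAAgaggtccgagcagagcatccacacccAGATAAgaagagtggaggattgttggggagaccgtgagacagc
Of 12501 windows of this length, from 9704 tested genes, 5.90% held the motif on either strand. Some genes had more than 1 window, so this share is per window and not per gene. A match describes the letters and is not a binding site.

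Among the WNT pathway members the secreted inhibitors Dkk1 and Frzb were on the stellate side, and 2 ligands, 2 receptors and the agonist Rspo1 on the mesothelial side. Dkk1, which blocks WNT co-receptors, was at 1010 and 699 on the stellate side against 304 and 86. Frzb, a secreted decoy for WNT, was at 350 and 233 against 77 and 38. Shisa3, which retains frizzled receptors inside the cell and was not on the list, was at 2674 and 808 against 987 and 133. Only Shisa3 of these 3 overlapped between the sides.

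Higher on the mesothelial side beside Rspo1 were the ligands Wnt2b, at 129 and 130 against 33 and 26, and Wnt5a, at 387 and 643 against 169 and 32. The receptor genes were Fzd6, at 925 and 1607 against 352 and 405, and Ror1, at 1042 and 763 against 454 and 106. Wls, which carries WNT proteins to the cell surface and was not on the list, was at 1944 and 2343 against 783 and 278. None of these 5 genes overlapped between the sides. Several calls depended on the processing: with the mean over probe sets the smaller difference became -0.86 for Wnt5a, -0.89 for Fzd6 and -0.81 for Ror1, so that neither receptor gene was 2-fold, and with a pseudocount of 64 it became -0.99 for Wnt2b and -0.95 for Wnt5a. Of 34 tested genes 2 were stellate-side and 5 mesothelial-side members, with medians of -0.30 and -0.57. Of other inhibitors, Sfrp2 was at 0.21 and -3.70, and Dkk3 at 0.22 and 0.66, below 2-fold.

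Growth factor genes of the FGF and PDGF families were among the mesothelial-side members. Fgf9, known as a signal from mesothelium to mesenchyme in the lung, was at 1332 in ITGA8- and 1551 in PDPN+ against 324 and 85 on the stellate side. Fgf18 was at 684 and 630 against 313 and 25, and Fgf5, outside the lists, at 1634 and 753 against 316 and 1. None of the 3 overlapped, and the smaller difference of Fgf18 became -0.99 with a pseudocount of 64 and with loess. Among the receptors, Fgfr2 lay the other way just short of 2-fold in the ITGA8 split, at 0.92 and 1.03. Of 15 tested FGF pathway genes 2 were mesothelial-side members and 0 stellate-side, and the medians were 0.14 and 0.45.

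Pdgfa, a mitogen for mesenchymal cells, was at 4242 and 7534 on the mesothelial side against 1666 and 2210. Pdgfd was at 1067 and 2943 against 459 and 243. Their receptor genes were not members: Pdgfra was at 0.43 and -1.47 and Pdgfrb at -0.10 and 0.76. Igfbp2, a carrier of insulin-like growth factors, was at 2255 and 3199 on the mesothelial side, with differences of -2.46 and -3.29, while its relative Igfbp7 lay on the stellate side, at 3727 and 1373 against 586 and 649. Cxcl12, a chemokine that holds blood progenitors in their niche, was at 5827 and 8182 on the stellate side against 2438 and 3185, and the other probe set above the floor differed by 1.44 and 1.38. With the mean over all probe sets of a gene, low ones included, the smaller difference became 0.46 for Cxcl12, 0.92 for Igfbp7 and -0.62 for Pdgfd, below 2-fold. On the values given, the sides did not overlap for any of these 5 members. Of 28 tested genes of this list 2 were stellate-side and 4 mesothelial-side, with medians of 0.00 and 0.10.

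Angptl6, a secreted angiopoietin-like protein, was at 1331 and 1258 on the stellate side against 523 and 461. Adm, the vasodilator peptide adrenomedullin, was at 3447 and 2121 against 754 and 920. Ramp1, which forms the receptor for the related peptide CGRP, was on the other side, at 114 in ITGA8- and 288 in PDPN+ against 11 and 18. Edn3, an endothelin, was also on the mesothelial side, at 446 and 802 against 150 and 38. Each of these genes kept the sides apart.

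Of 27 tested genes of the stellate cell list, 6 were stellate-side members and 0 mesothelial-side, with medians of 0.29 and 0.29: Lrat, Bmp5, Itga8, Gdf2, Ngfr and Angptl6. The members lacked several genes that mark stellate cells. Colec11 and Colec10, the liver collectins, were at 2.37 and 1.23 in the ITGA8 split but at 0.78 and -0.36 in the PDPN split. Reln was at 1.14 and 0.64, and Lhx2, a transcription factor that restrains stellate cell activation, at 1.12 and 0.67. Hand2, Foxf1 and Pdgfra were more than 2-fold lower in PDPN- than in PDPN+ cells, at -1.52, -1.67 and -1.47, and differed little in the ITGA8 split, at 0.27, -0.10 and 0.43. Des, the muscle and stellate cell intermediate filament desmin, was at 0.50 and 0.04. Of the 6 list members, Lrat, Bmp5 and Ngfr are the markers themselves and Itga8 is a sort gene. Only Gdf2 and Angptl6 are neither. The same arrays chose the members, and the list was made with earlier results known. The count of 6 of 27 therefore cannot check the label of the stellate side. The list as a whole did not pass in both splits.

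Vitamin A genes did not divide with Lrat. Of 17 tested genes of retinoid handling 1 was a stellate-side member, Lrat, and 1 a mesothelial-side member, Stra6, the membrane receptor for retinol-binding protein. Stra6 was at 713 in ITGA8- and 299 in PDPN+ against 147 in ITGA8+ and 30 in PDPN-, with no overlap. Plin2, of lipid droplets, was at 0.76 and 0.76. Aldh1a2, which makes retinoic acid and is a mesothelial gene, was at 0.09 in the ITGA8 split and at -5.18 in the PDPN split. The list medians were 0.10 and -0.22.

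A group of 23 stellate-side genes encodes liver enzymes, transporters and plasma proteins, with the nuclear receptor gene Nr1h4 counted among them. It was put together after the values had been seen. Bhmt, betaine-homocysteine methyltransferase, was at 5494 in ITGA8+, 20294 in PDPN-, 2670 in ITGA8- and 7789 in PDPN+. Plg, plasminogen, was at 1552 and 6675 on the stellate side against 732 and 1939. Abcc2, the canalicular transporter of conjugated bilirubin, was at 905 and 3491 against 362 and 1445. Cbs, cystathionine beta-synthase, was at 1210 and 3537 against 475 and 1352. In all 4 genes the PDPN+ array lay above the ITGA8+ array, so the sides overlapped.

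The PDPN- array was above the ITGA8+ array in 22 of the 23 genes and the PDPN+ array above the ITGA8- array in 21, and the sides kept apart in 13. In the other 77 stellate-side genes the same counts were 24, 24 and 60. Of all genes tested 12.3% had the sides apart in this order, and shares for the other 2 orders were not computed. These counts describe genes that the same 4 arrays had chosen and that were grouped with their values in view, so nothing is read from them. The group includes Nr1h4 and the plasma protein gene Proz, named above among the leaders. Nr1h4 encodes a receptor and also stands in the list of septum transversum and coelomic transcription factors, so it is counted in both. Of the 26 tested hepatoblast genes, a list of the liver's epithelial progenitors, 0 were members, where 3.24% of all genes tested were. Their summed intensity came to 368774 in the PDPN- array and 272362 in the PDPN+ array. The ITGA8+ and ITGA8- arrays were lower, at 211985 and 182387. The sum was thus highest in the array that was also above the others for most of this group. The list medians were 0.25 and 0.58, the first falling to -0.01 with loess and 0.01 with quantile normalisation; 7 of 26 were 2-fold higher in PDPN- than in PDPN+ cells, where 6.98% of all genes were, and 0 in ITGA8+ than in ITGA8- cells, where 4.62% were. No hepatoblast marker was at 0 in any array. The part of hepatoblasts in these stellate-side genes was not tested, and in such bulk samples fewer cells of a type cannot be told apart from less RNA per cell.

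The mesothelial side was led by a tight junction gene and a neuropeptide precursor. Cldn15, a claudin, was at 289 in ITGA8- and 445 in PDPN+ against 9 in ITGA8+ and 1 in PDPN-. With 2 arrays so far below the floor the added constant sets the size of its difference: the smaller one was -3.61, and became -4.86 with a pseudocount of 1 and -2.27 with 64. Pnoc, the precursor of nociceptin, was at 2956 and 6625 against 320 and 108. Ooep, a gene named for the oocyte, was at 341 and 1248 against 35 and 3. Cldn15 and Ooep were below the floor in both stellate-side arrays, Pnoc only in PDPN-.

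Lrrn4 and Tm4sf5, surface proteins on the mesothelial list, were at 1095 and 1421 against 148 and 31, and at 3275 and 6308 against 503 and 146. Cav1, which forms caveolae, was at 4601 and 7082 against 868 and 204, and Cavin1, its coat protein, at 2166 and 2954 against 1054 and 716. Myl7, the atrial myosin light chain, was at 8047 and 11180 against 1546 and 190. It was the 1 member among 7 tested cardiac muscle genes, whose medians were -0.60 and -2.21; Tnnt2 was at -0.89 and -2.21 and Actc1 at -0.40 and -2.61. Rnf182, Tub, 6430500D05Rik and an uncharacterised transcript whose symbol is damaged in the deposited table completed the 15 leading genes beside the keratin, matrix and IGF carrier genes given elsewhere.

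**Figure D3:**
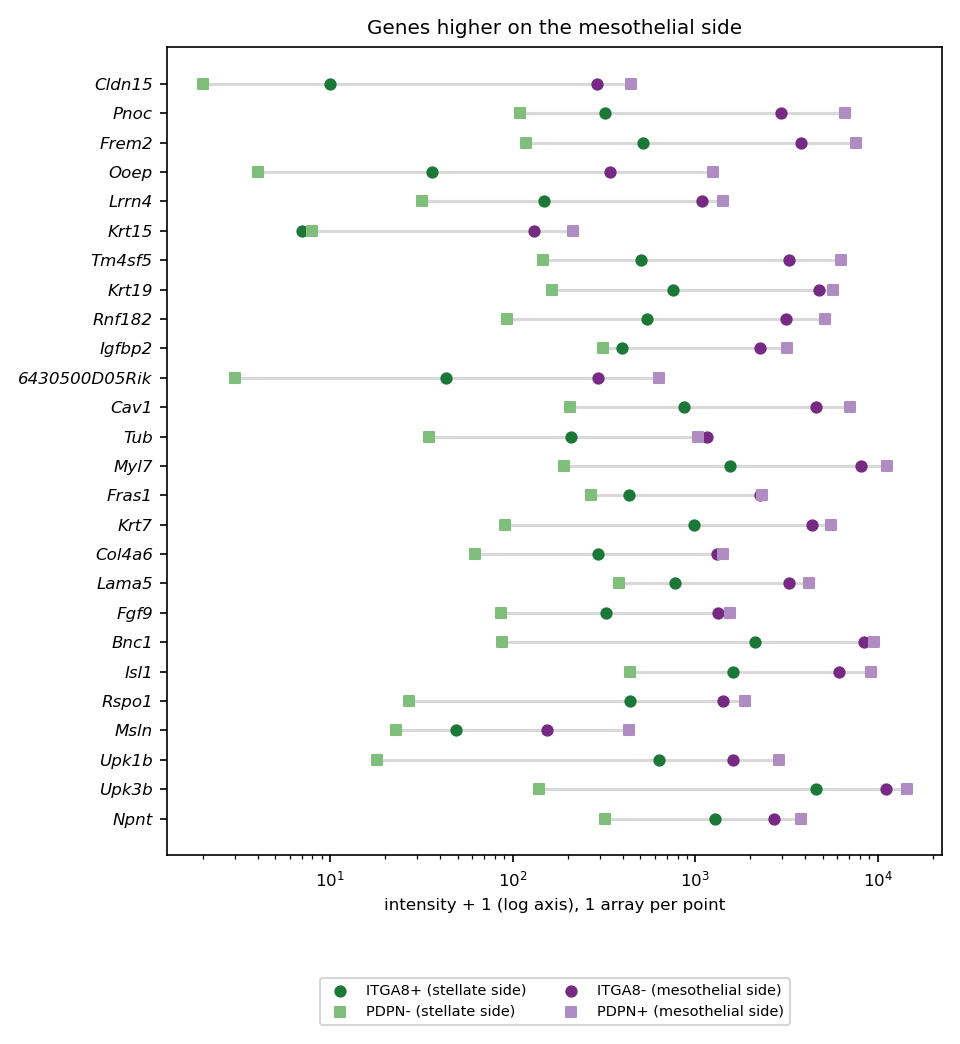
Intensity plus 1 on a log axis for 14 of the 15 leading mesothelial-side genes (a transcript with no usable symbol is left out) and 12 other named ones, 1 point per array; circles are the ITGA8 split, squares the PDPN split, green the stellate side and purple the mesothelial side. Both purple points lie to the right of both green points in every gene drawn, and the PDPN- square is the leftmost in all of them but Krt15.

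Of 22 tested genes of the mesothelial list, 13 were mesothelial-side members and 0 stellate-side, with medians of -1.42 and -4.96. Upk3b and Rspo1 among them are the markers themselves. The same arrays chose the members, and the list was made with earlier results known. This count therefore cannot check the label of the mesothelial side. Bnc1, the epithelial factor basonuclin, was at 8382 and 9573 on the mesothelial side against 2124 and 86. Msln, mesothelin, was at 153 and 430 against 48 and 22, and Muc16, the mucin that binds it, at 1070 and 1675 against 356 and 36. Gpm6a, a membrane glycoprotein, was at 3793 and 7217 against 930 and 180. The sides did not overlap for these 4 genes, with the PDPN- array lowest each time, and the smaller difference of Msln became -0.95 with a pseudocount of 64.

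The 9 others of the list did not pass in both splits. Wt1, the Wilms tumour transcription factor, was at 5762 in ITGA8+ and 6421 in ITGA8- but at 691 in PDPN- and 7554 in PDPN+. Aldh1a2 and Pdpn had the same form. Slpi, a secreted protease inhibitor, was higher in ITGA8+ than in ITGA8- cells, at 1.53, and lower in PDPN- than in PDPN+ cells, at -4.46. Dpp4 passed in the ITGA8 split alone, at -1.89 and -0.88. Krt8 and Krt18, which hepatoblasts also express, were at 0.60 and 0.75 and at -0.57 and 0.62.

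Keratins and uroplakins were the list with the largest share of members, 7 of 10 on the mesothelial side and 0 on the stellate side (medians -1.30 and -3.85). The simple epithelial keratins Krt19 and Krt7 were at 4781 and 5676 against 756 and 164, and at 4346 and 5545 against 988 and 90. The stratified-epithelium keratins Krt14, at 1204 and 1228 against 308 and 43, Krt15, at 129 and 212 against 6 and 7, and Krt17, at 129 and 148 against 56 and 5, lay on the same side. Upk1b, a uroplakin of the membrane plaque, was at 1609 and 2891 against 631 and 17. In none of these did the sides overlap, and the smaller difference of Krt17 became -0.69 with a pseudocount of 64 and -0.76 with the mean over probe sets. Krt15, Krt19, Krt14 and Krt17 are also successive genes in the order of tested genes along their chromosome, and keratin genes are close relatives whose probes can share signal.

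Among 26 tested genes of epithelial junctions, Cldn15 and the P-cadherin gene Cdh3 were the mesothelial-side members and none was on the stellate side. Cdh3 was at 596 and 756 against 164 and 88. Other junction genes lay higher in ITGA8- than in ITGA8+ cells but not in the PDPN split, among them Ocln at -1.31 and 0.80, Cldn1 at -0.87 and 1.26 and Cdh1 at -0.45 and 0.72. The list medians were -0.43 and 0.18. Podxl, podocalyxin of the apical surface, was at 13258 and 14427 against 5650 and 261, and Ezr, ezrin, which ties such proteins to actin, at 4926 and 7005 against 1796 and 2404. Neither gene overlapped between the sides. With the mean over probe sets the smaller difference became -0.56 for Ezr and -0.95 for Cdh3.

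Basement membrane genes gave 8 of 24 mesothelial-side members and 0 stellate-side, with medians of -0.52 and -1.39. The Fraser complex proteins, which anchor embryonic epithelia, were present with Frem2, at 3786 and 7638 against 519 and 118, and Fras1, at 2270 and 2331 against 433 and 266. Their partner Frem1 was not with them, at 1.25 and -0.54. The linked collagen IV genes Col4a6 and Col4a5 were at 1309 and 1416 against 294 and 61, and at 3772 and 5800 against 1070 and 558. By contrast Col4a1 and Col4a2, the common collagen IV chains, were at 1.17 and 0.76 and at 1.18 and 0.10.

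Lama5, the laminin alpha 5 chain of epithelia, was at 3265 and 4215 on the mesothelial side against 769 and 381, and the other probe set above the floor differed by -2.46 and -3.18. Lama1, the alpha 1 chain, was at 1.32 and 0.20 and Lama2 at 1.11 and -0.21. The smaller difference of Lamc3 was -0.63 with the mean over probe sets, -0.82 with a pseudocount of 64 and -0.95 with loess. Lamc1 was at 5528 and 6722 against 2542 and 3033. Npnt, nephronectin, the ligand of the integrin with which 1 split was made, was at 2696 and 3775 on the mesothelial side against 1282 and 320. Itga8 and Npnt thus lay on opposite sides, each with no overlap. Bcam, a receptor for laminin alpha 5 that was on no list, was at 793 and 1281 against 144 and 274.

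Of 39 tested interstitial matrix genes 2 were members: Prelp was on the stellate side and Fbln2 on the mesothelial side. Prelp, a leucine-rich repeat proteoglycan that anchors basement membranes, was at 334 and 254 against 86 and 65. Fbln2, fibulin 2, was at 1612 and 1995 against 586 and 152, and with specific probe sets alone its smaller difference was -0.60. The list medians were 0.17 and -1.45. Of 13 tested integrins only Itga8 was a member, and their medians were 0.29 and -0.31. Of 15 genes of portal fibroblasts and stromal surfaces, with medians of 0.15 and -1.47, Meox2 was on the stellate side and Fbln2, Mcam and Cd200 on the mesothelial side. Cd200, an immune-restraining surface protein, was at 683 and 1874 against 261 and 56.

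Transcription factors of the septum transversum and coelomic lining gave 2 stellate-side and 6 mesothelial-side members of 34 tested, with medians of 0.16 and -0.95. Isl1, a LIM homeodomain factor of heart and motor neuron progenitors, was at 6158 and 9140 on the mesothelial side against 1600 and 440. Tbx18, an epicardial T-box factor, was at 1713 in ITGA8- and 198 in PDPN+ against 612 in ITGA8+ and 10 in PDPN-, so the sides overlapped. Lhx9, of gonads and body wall mesothelium, was at 2387 and 1625 against 749 and 37, and Bnc2 at 2612 and 4140 against 955 and 61. Sox6 was at 1676 and 1486 against 625 and 77, and is also an erythroid factor. On the stellate side was Nr1h4, also counted in the group of liver genes above. Beside it was Meox2, a homeodomain factor of mesenchyme and vessels, at 731 and 186 against 177 and 80. For Meox2 the PDPN- and ITGA8- arrays, at 186 and 177, were close to each other, and its smaller difference became 0.80 with a pseudocount of 64, 0.90 with the mean over probe sets and 0.73 with specific probe sets.

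Barx1, a homeodomain factor outside the list that is known from the mesenchyme of the embryonic stomach, was also on the mesothelial side, at 1351 and 1286 against 328 and 151, and the sides did not overlap.

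Genes known from neurons were found on both sides. Of 40 tested genes of neural and axon guidance lists, Ngfr was the stellate-side member and 7 were mesothelial-side members, with medians of -0.03 and -1.60. Of all members 75.9% were mesothelial-side, so the larger count on that side is not particular to these genes. Bdnf, a neurotrophin that binds the Ngfr product, was at 279 and 325 on the mesothelial side against 93 and 72. The ephrin Efna1 was at 673 and 1003 against 215 and 267, and the receptor Epha7 at 2043 and 2182 against 815 and 538. Sema3c, a secreted semaphorin, was at 750 and 879 against 329 and 67, and Plxna4, a semaphorin co-receptor, at 613 and 618 against 280 and 60. The sides did not overlap for these 5 genes. Sema3g, another semaphorin, was also a mesothelial-side member, with a smaller difference of -1.40, as was Pnoc, given above. With the mean over probe sets the smaller difference became -0.69 for Sema3c, -0.90 for Plxna4 and -0.98 for Epha7, and that of Plxna4 was -0.98 with a pseudocount of 64 and -0.99 with loess. Kcna5 and Kcna1, potassium channel genes that are neighbours, were at -1.24 and -4.49 and at -1.74 and -3.51.

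Ccn1 and Amotl2, textbook targets of the YAP and TEAD regulators, were mesothelial-side members. Amotl2 was outside the lists. Ccn1 stands in the list of immediate early genes under its older symbol Cyr61. That symbol was not matched, so the counts of that list leave Ccn1 out. Ccn1, a matricellular protein, was at 8842 in ITGA8- and 11210 in PDPN+ against 3561 in ITGA8+ and 3971 in PDPN-. Amotl2, an angiomotin of cell junctions, was at 2510 and 3263 against 785 and 715. The stellate-side arrays lay close to each other for these probe sets. The 3 other probe sets of Ccn1 above the floor differed by -2.54 and -1.78, by 0.12 and -1.61 and by 0.15 and -1.50, so that 2 of them showed no mesothelial-side difference in the ITGA8 split. The 250 bases before the start of these genes, of Upk3b as the mesothelial marker and of Cldn15 as the leading gene are shown because each holds the TEAD core motif GGAATG. Capitals mark it as CATTCC, its complement on the strand shown. The matches began 103 bases before the start in Ccn1, 65 in Amotl2, 241 in Upk3b and 237 in Cldn15. The sequences are from RefSeq, GRCm38.p6, written 5′ to 3′ in the direction of each gene:
Upk3b, chr5:136038246-136038495, plus strand: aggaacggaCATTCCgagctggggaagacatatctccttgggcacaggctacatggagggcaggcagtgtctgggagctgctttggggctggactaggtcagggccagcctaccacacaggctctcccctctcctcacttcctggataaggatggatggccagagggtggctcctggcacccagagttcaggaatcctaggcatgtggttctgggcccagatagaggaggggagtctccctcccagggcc
Cldn15, chr5:136967619-136967868, plus strand: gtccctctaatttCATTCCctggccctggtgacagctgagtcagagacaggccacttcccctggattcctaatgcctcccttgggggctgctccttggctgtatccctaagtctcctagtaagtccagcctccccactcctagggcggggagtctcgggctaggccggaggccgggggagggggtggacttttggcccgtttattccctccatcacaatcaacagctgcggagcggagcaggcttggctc
Ccn1, chr3:145649986-145650235, minus strand: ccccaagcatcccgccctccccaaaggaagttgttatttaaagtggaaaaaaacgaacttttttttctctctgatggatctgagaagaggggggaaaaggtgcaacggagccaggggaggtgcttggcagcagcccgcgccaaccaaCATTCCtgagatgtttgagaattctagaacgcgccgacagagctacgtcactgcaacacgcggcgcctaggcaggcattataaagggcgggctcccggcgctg
Amotl2, chr9:102717554-102717803, plus strand: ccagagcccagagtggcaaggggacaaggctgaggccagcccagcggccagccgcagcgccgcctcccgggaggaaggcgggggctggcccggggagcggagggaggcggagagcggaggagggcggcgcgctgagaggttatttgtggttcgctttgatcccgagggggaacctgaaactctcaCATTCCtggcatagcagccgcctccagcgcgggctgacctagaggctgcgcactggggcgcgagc
The motif was searched on both strands and was in 10.9% of the 12501 windows of this length. Some genes had more than 1 window, so this share is per window and not per gene. Windows were matched for 78 of 100 stellate-side genes (78%), 199 of 315 mesothelial-side genes (63.2%) and 9704 of all 12801 genes tested (75.8%). The share of members with a motif was not computed, so nothing is said of the motif among members. The 4 genes shown were picked because they hold the motif.

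**Figure D4:**
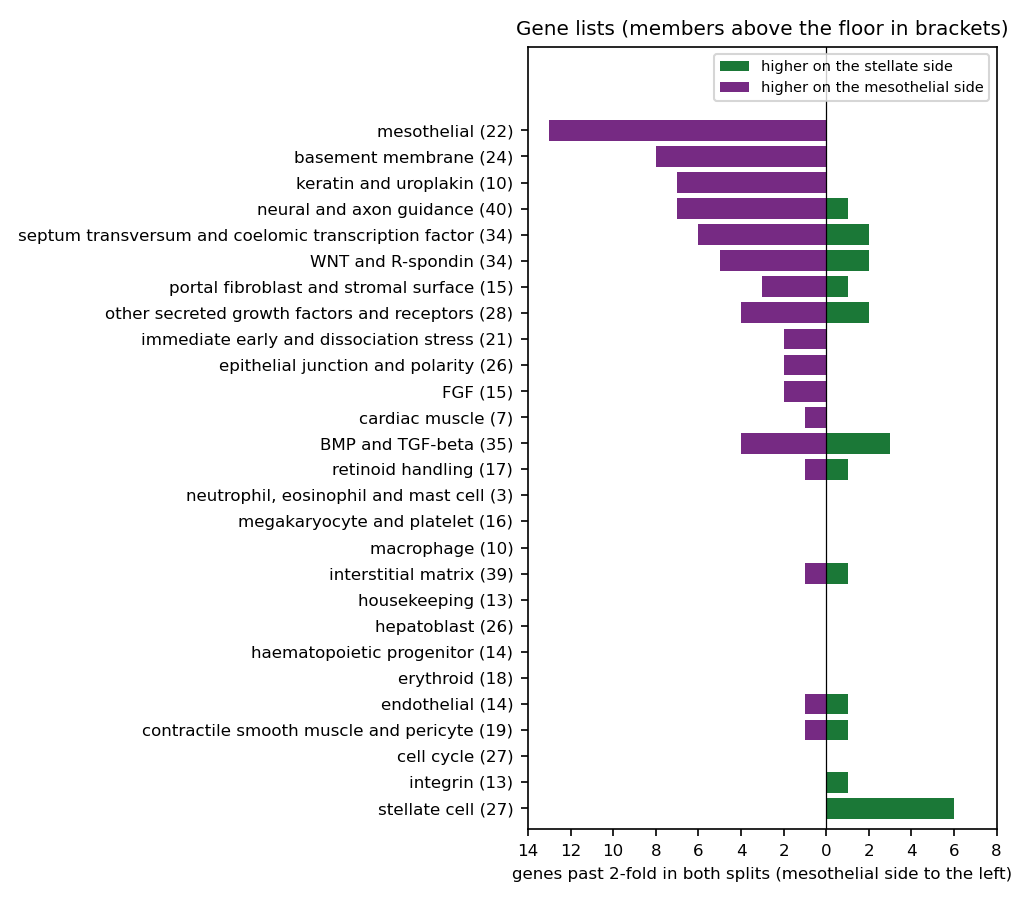
Number of genes of each list that passed 2-fold in both splits, to the left for the mesothelial side and to the right for the stellate side; the number of tested genes of the list is in brackets. Bars reach 13 of 22 for mesothelial, 8 of 24 for basement membrane and 7 of 10 for keratin and uroplakin genes, and 6 of 27 for stellate cell genes to the right.

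Lists of other cells the sorts could hold are given next. Of all genes tested 3.24% were members of either side, so a count of 0 in lists this short is not read as a result. Megakaryocyte and platelet, macrophage, erythroid, blood progenitor and granulocyte lists had 0 of 16, 10, 18, 14 and 3 tested genes on either side. The erythroid medians were 0.14 and -0.71, those of progenitors 0.06 and -1.80 and those of granulocytes 0.33 and -2.51. The megakaryocyte medians were 1.49 in the ITGA8 split and -4.40 in the PDPN split, and the macrophage medians 1.27 and -5.21. Summed megakaryocyte intensity was 57272 in ITGA8+, 1273 in PDPN-, 24931 in ITGA8- and 45975 in PDPN+, and the summed macrophage intensity 10469, 1469, 5487 and 61961. The PDPN- array, lowest for most mesothelial-side genes, was thus also the lowest for these blood lists, and their part in the mesothelial-side differences was not tested. No marker of either list was at 0. Of these genes, 12 of 16 and 6 of 10 were 2-fold higher in ITGA8+ than in ITGA8- and in PDPN+ than in PDPN- cells, where 139 of all genes tested (1.09%) were; the converse held for 0 of them and for 30 of all genes (0.234%).

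Of 14 tested endothelial genes Plvap was a stellate-side member and Kdr, the VEGF receptor, a mesothelial-side member, at 651 and 217 against 231 and 8. Kdr overlapped, since ITGA8+ was above PDPN+. The endothelial medians were 0.14 and -1.37. Of 19 contractile and pericyte genes Abcc9 was on the stellate side and Mcam on the mesothelial side, at 2068 and 2189 against 554 and 308, with medians of 0.27 and -0.55. The 27 cell cycle genes gave 0 members and medians of 0.09 and 0.12. The 13 housekeeping genes gave 0 members and medians of 0.17 and 0.15, where 3.24% of all genes tested were members. Of 21 immediate early genes, which sorting can induce, Egr2 and Ier3 were on the mesothelial side, and with loess neither was. Ccn1, listed there under its older symbol Cyr61 and not matched, is not among the 21. Egr2 was at 1239 and 2779 against 583 and 575 and Ier3 at 1308 and 1232 against 630 and 65, and the list medians were -0.60 and -0.51. The smaller difference of Egr2 became -0.97 with specific probe sets and -0.98 with loess, and that of Ier3 -0.98 with a pseudocount of 64 and -0.95 with loess. The 27 lists held 693 genes, of which 518 were tested, 16 were stellate-side and 58 mesothelial-side members, and some genes stand in several lists.

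The ALCAM+ and liver arrays were then read for the same genes, since the rule had not used them. ALCAM+ was higher than liver by 0.87 on the log2 scale over all genes tested (a 1.83-fold shift of scale), and differences are given relative to that. Among the mesothelial-side genes 207 passed the floor here, of which 117 (56.5%) had 2-fold more signal in ALCAM+ cells and 15 (7.25%) lower, with a median of 1.19, where 16.2% of 10699 genes were higher and 9.29% lower. Of 63 stellate-side genes 21 (33.3%) were higher and 0 lower, with a median of 0.75. Upk3b, at 3053 in ALCAM+ and 54 in liver, had the highest value of the mesothelial side, 4.58, followed by Npnt at 4.40 and Bnc1 at 3.88. Ackr1, the atypical chemokine receptor of erythroid and endothelial cells, had the lowest, at -3.32.

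On the stellate side the highest values were those of Cyp1b1, at 2.62, Gdf10, at 2.19, Hpca, at 1.97, and Itga8, at 1.93, and the lowest that of Adm, at -0.60. Cyp1b1, an enzyme that oxidises steroids and retinoids, was at 8493 in ITGA8+, 823 in PDPN-, 3444 in ITGA8- and 403 in PDPN+, so it passed in both splits while its levels overlapped between the sides. Lrat, at 77 and 24, Bmp5, at 77 and 31, and Ngfr, at 84 and 36, were below the floor in both the ALCAM+ and liver arrays and could not be read there.

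**Figure D5:**
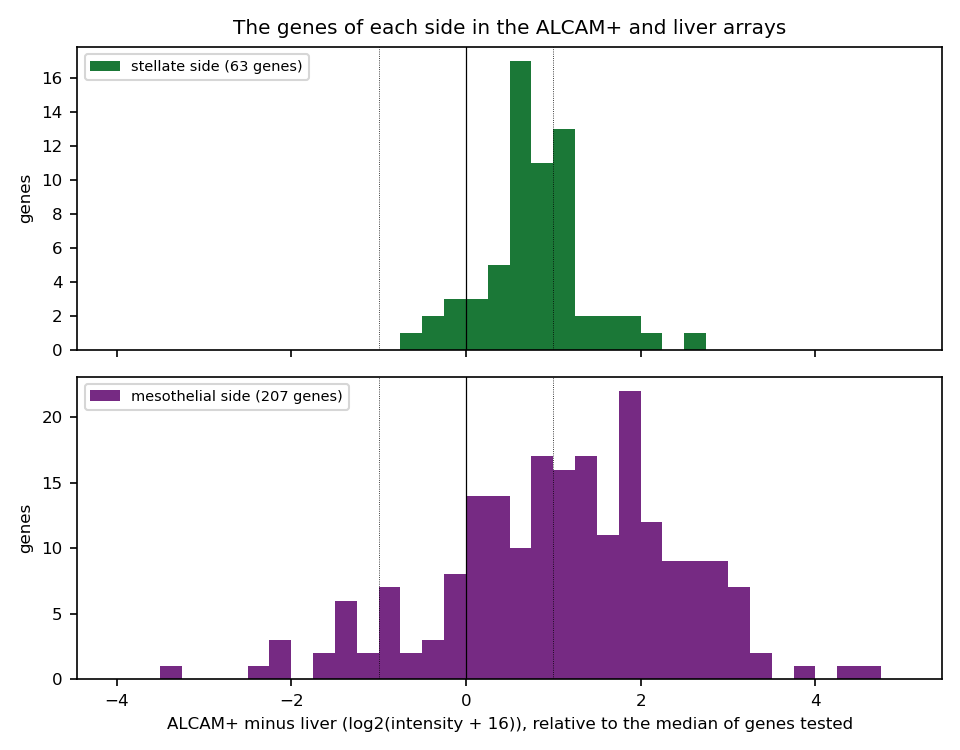
Distribution of ALCAM+ minus liver differences on the log2(intensity + 16) scale, relative to the median of all genes tested, for the 63 stellate-side genes (top) and the 207 mesothelial-side genes (bottom) above the floor in these arrays; the y axis counts genes and dotted lines mark 2-fold. The stellate-side genes lie between -0.60 and 2.62 and the mesothelial-side genes between -3.32 and 4.58.

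Beyond these, 53 stellate-side and 207 mesothelial-side members have a gene name but were matched to no list or group used here. A further 9 and 50 are known only as clones, expressed sequences or predicted genes.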

How the data were processed

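RNA of 6 samples, 1 array each, was hybridised after amplification from 20 ng of total RNA, per the labels' protocols. The deposited values are probe set intensities on a linear scale. RMA and Partek were used, per the submitters' processing notes; versions, genome build and further scaling are stated in none of the sources used here. The planned design took the values for log2 values; they were linear, and were transformed here to log2(intensity + 16), since the authors' intensities reach down to 0. The liver and ALCAM+ arrays are on another scale than the 4 fractions, so differences were taken within each set.

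Of 45101 probe sets, 64 controls, 5746 that named no gene and 1280 that named several were left out. The probe set with the highest mean log2 value over the 4 fraction arrays stood for each gene. Symbols came from a RefSeq gene table (GRCm38.p6), which matched 92.1% of the probe sets of 1 gene, and otherwise from the deposited table. The 4 arrays had medians of 159 to 245 over these probe sets and 11874 to 13352 genes above the floor; the number of arrays limits the precision. No test was run, because each group has 1 array.

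The genes named are the 5 markers, the 3 sort genes, and the 15 with the largest smaller-of-2 difference on each side. List members that passed on 1 side are named too. Genes said to be outside the lists, and Ccn1, were chosen after their values were seen, as were non-members named for contrast. The members and the 27 lists were chosen with earlier results of these data known. Crb2, C3, Cyp26c1, Bmp3, Gdf6, Fbn2, Loxl2, Itga11, Trf and Gapdh had no probe set of their own under these symbols. The lists also used the older symbols Figf, Emr1, Cyr61 (Ccn1) and Ctgf, which were not matched. Alternatives changed the pseudocount, floor, normalisation, fold and probe set choice (the mean over all probe sets of a gene, or only specific ones, whose name does not mark them as shared between transcripts). The code of the selection rule was run on simulated arrays whose changed genes lay well above the floor and well past 2-fold. That checks the code and says nothing about error in these arrays. Python 3.11.15, numpy 2.4.6, pandas 2.3.3, statsmodels 0.14.6 and matplotlib 3.10.9 were used.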

Additional observations from a re-analysis of the deposited data

Results flagged for a closer look

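Some genes differed by 2-fold in both splits but on opposite sides, and the difference between the splits was not tested. At 2-fold, 139 genes (1.09% of those tested) were higher in ITGA8+ than in ITGA8- cells and higher in PDPN+ than in PDPN- cells. The reverse, higher in ITGA8- and in PDPN-, held for 30 genes (0.234%), among them Tarbp2, at 285 in ITGA8+, 3500 in ITGA8-, 6907 in PDPN- and 2196 in PDPN+, and Phlda2, at 117, 363, 4103 and 1378.

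Of 16 megakaryocyte and platelet genes 12 were higher in ITGA8+ and in PDPN+ cells. Gp6, the platelet collagen receptor, was at 348 in ITGA8+, 30 in ITGA8-, 3 in PDPN- and 165 in PDPN+, and Vwf, von Willebrand factor, at 2835, 613, 3 and 1097. Of 10 macrophage genes 6 had this form, among them C1qb, a complement subunit, at 315, 54, 39 and 9462.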

How the results depend on the processing

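With 1 array per group no array could be left out, and the size of a difference has no error. No paired analysis was possible because each group has 1 array and the labels give no replicate numbers. The stellate-side count of 100 became 64 with a pseudocount of 64, 177 with no floor, 176 with quantile normalisation, 5 at 4-fold, and 28 when every stellate-side array had to be 2-fold above every mesothelial-side array, an alternative chosen after seeing the data. The mesothelial-side count of 315 became 38 at 4-fold. Under the other alternatives both counts stayed within 1.5 times: stellate-side from 67 (mean over probe sets) to 132 (loess), mesothelial-side from 224 (every pair of arrays) to 376 (no floor). Quantile normalisation kept 95 of the 100 and 266 of the 315 genes, and the mean over probe sets 61 and 219. Loess took the matched genes of the immediate early list from 2 members to 0. Other list counts moved by at most 1 with loess, quantile or median scaling. Over 8 alternatives none of 87 named genes changed direction, except that 8 had no value with specific probe sets alone. Named genes that were no longer 2-fold in both splits numbered 18 with the mean over probe sets, 9 with a pseudocount of 64, 5 with loess, 4 with specific probe sets and 2 with median centring. The smaller difference of Krt17 and Lamc3 became -0.99 and -0.98 with median centring. The mesothelial-side share of members was 75.9%, 60.8% with quantile normalisation and 66.8% with loess.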

Other observations

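Of 39 tested interstitial matrix genes, 25 were 2-fold higher in PDPN+ than in PDPN- cells, where 18.4% of all genes were, and 1 was lower, where 6.98% were. In the ITGA8 split ITGA8+ cells had 2-fold more of 6 of them, against 4.62% of all genes, and ITGA8- cells of 1, against 6%. Col12a1, of fibril surfaces, was at 533 in ITGA8+, 892 in ITGA8-, 39 in PDPN- and 1130 in PDPN+. Fmod, fibromodulin, was at 6665, 7037, 541 and 10830, and Efemp1, fibulin 3, at 2675, 3616, 175 and 3421. Collagen VI went apart: Col6a2 was at 1.32 in the ITGA8 split and -1.94 in the PDPN split, and Col6a3 at 1.32 and 0.21.

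Of 40 tested guidance genes, 24 were 2-fold higher in PDPN+ and 6 in PDPN- cells, against 18.4% and 6.98% of all genes. In the ITGA8 split the counts were 3 for ITGA8+ and 7 for ITGA8-, against 4.62% and 6%. Nrp2, a semaphorin and VEGF co-receptor, was at 2441 in ITGA8+, 3498 in ITGA8-, 80 in PDPN- and 2928 in PDPN+. Unc5c, a netrin receptor, was at 7446, 3245, 485 and 1127, higher in ITGA8+ and in PDPN+. Dcx, doublecortin of migrating neurons, had the other order in the PDPN split, at 950, 533, 314 and 21.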
